A study of Homo sapiens with 8 samples.

Results

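The chromosome 19 zinc finger genes described here are the protein-coding genes of human chromosome 19 (hg19) whose symbol is ZNF followed only by digits. The rule found 240 genes among the 1480 coding genes of the chromosome, 83 on the short arm (19p) and 157 on the long arm (19q). Of these, 234 had a row among the 23375 named genes of the count table, and ZNF525, ZNF66, ZNF723, ZNF724, ZNF738 and ZNF888 had none. In the study, 2 lines of human lung cancer cells were compared, PC9, an adenocarcinoma line with an activating EGFR mutation that is sensitive to the EGFR inhibitor gefitinib, and PC9R, screened from PC9 under gefitinib given for 1 to 2 weeks. Cells of both lines were at passages 8 to 12. Each line had 2 RNA-seq libraries, called the first and the second, with 1 peak list of DNase hypersensitive sites (DHS, open chromatin) and 1 of the histone mark H3K4me2, which is found at promoters and enhancers. The labels do not say whether PC9R is a clone or a pool, whether gefitinib was present at harvest, or whether a line's RNA libraries come from different cultures. The p-values below therefore cover the spread among 4 libraries, and that spread may be technical.

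The PC9 libraries held 32515891 (first) and 16013058 (second) counts and the PC9R libraries 32502455 and 16715426. Levels are CPM, counts divided by library size on a fixed common scale, with TMM factors, and fold changes are PC9R minus PC9 on the log2 scale. Of 6 epithelial markers, 5 (CDH1, EPCAM, KRT8, KRT18 and KRT19) were at 1 CPM or more in all 4 libraries. None of the 4 lung markers NKX2-1, NAPSA, SFTPB and SFTPC reached that level, and SFTPC had no count. The 4 leukocyte markers summed to at most 0.370 CPM, while the fibroblast list (COL1A1 detected, PDGFRA at 0) summed to 6.21 to 24.2 CPM in PC9 and 13.7 to 64.3 CPM in PC9R, and the endothelial list (PECAM1 and CDH5 detected) to 12.7 to 22.4 CPM and 20.1 to 46.8 CPM. The part of these markers in the results was not tested.

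Most of these genes encode DNA-binding proteins with tandem C2H2 zinc fingers, and many also carry a KRAB domain. The KRAB domain binds TRIM28, which brings the histone methyltransferase SETDB1, HP1 proteins and histone deacetylases to the bound site and silences it. Many KRAB zinc finger proteins bind transposable elements. The genes lie in tandem arrays that arose by repeated duplication, so that neighbours share sequence, and reads that fit several copies may be split between them or lost. The sources used here do not say how such reads were assigned. Several promoters of the family are known to be DNA-methylated in tumours, ZNF154, ZNF582 and ZNF677 among them.

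With members at most 500 kb apart joined, 228 of the 240 genes fell into 10 clusters of at least 5 members and 12 lay outside. Clusters are named here by their first and last member. On 19p these are ZNF554 to ZNF77 (5 genes), ZNF414 to ZNF846 (13), ZNF653 to ZNF791 (25) and ZNF101 to ZNF254, whose 37 genes have their starts between positions 19779648 and 24269989, next to the centromere. On 19q these are ZNF302 to ZNF792 (5), ZNF565 to ZNF573 (24), ZNF575 to ZNF180 (23), ZNF175 to ZNF331 (39, starts between 52074536 and 54041399), ZNF628 to ZNF835 (16) and ZNF264 to ZNF446 (41).

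The upstream sequences of 5 members are shown because these genes had the 5 largest fold changes among tested members, from 0 or a low level in PC9: 2 from the ZNF101 to ZNF254 cluster (ZNF253, ZNF91), 2 from the ZNF175 to ZNF331 cluster (ZNF677, ZNF347) and 1 from the ZNF565 to ZNF573 cluster (ZNF793). Each runs 5′ to 3′ over the 250 bases before the transcription start site (TSS), read from GRCh37, and capitals mark each CpG, the dinucleotide that DNA methylation uses.
ZNF253, chr19:19976441-19976690, plus strand: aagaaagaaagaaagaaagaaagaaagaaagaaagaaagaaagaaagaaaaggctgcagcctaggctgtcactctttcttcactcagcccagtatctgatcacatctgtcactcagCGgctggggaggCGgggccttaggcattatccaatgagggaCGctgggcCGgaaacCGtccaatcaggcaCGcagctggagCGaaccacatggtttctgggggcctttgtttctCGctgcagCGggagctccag
ZNF91, chr19:23578274-23578523, minus strand: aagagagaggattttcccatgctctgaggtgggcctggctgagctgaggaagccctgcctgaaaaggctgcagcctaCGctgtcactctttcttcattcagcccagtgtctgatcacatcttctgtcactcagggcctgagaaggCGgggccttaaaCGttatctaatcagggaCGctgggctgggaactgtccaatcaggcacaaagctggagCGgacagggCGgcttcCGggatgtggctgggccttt
ZNF677, chr19:53758127-53758376, minus strand: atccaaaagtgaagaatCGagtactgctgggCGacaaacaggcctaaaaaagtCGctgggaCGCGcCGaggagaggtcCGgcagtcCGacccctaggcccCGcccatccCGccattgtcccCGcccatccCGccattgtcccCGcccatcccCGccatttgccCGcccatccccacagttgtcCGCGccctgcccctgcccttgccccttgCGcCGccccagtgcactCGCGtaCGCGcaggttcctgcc
ZNF347, chr19:53662307-53662556, minus strand: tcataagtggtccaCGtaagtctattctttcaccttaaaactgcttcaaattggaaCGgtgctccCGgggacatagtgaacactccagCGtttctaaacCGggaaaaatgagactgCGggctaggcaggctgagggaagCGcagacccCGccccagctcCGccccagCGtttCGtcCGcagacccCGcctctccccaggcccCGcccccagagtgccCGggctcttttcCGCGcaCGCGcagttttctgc
ZNF793, chr19:37997591-37997840, plus strand: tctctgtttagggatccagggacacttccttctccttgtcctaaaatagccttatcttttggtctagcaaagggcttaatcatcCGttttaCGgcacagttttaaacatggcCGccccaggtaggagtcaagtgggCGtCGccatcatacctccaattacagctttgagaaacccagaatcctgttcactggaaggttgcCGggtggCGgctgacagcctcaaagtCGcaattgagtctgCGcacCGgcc

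The ZNF253 and ZNF91 stretches hold 9 and 7 CpG, and share the run gctgtcactctttcttca. That 18-base run, searched on both strands, was found upstream of 8 of the 37 genes of the ZNF101 to ZNF254 cluster and of no other among 19790 coding genes. The stretches of ZNF677 and ZNF347 hold 23 and 19 CpG, and that of ZNF793 holds 10. Within the ZNF101 to ZNF254 cluster the median identity between pairs of upstream sequences was 65.6% (666 pairs), against 46.4% to 51.4% within the other 9 clusters and 47.2% in the ZNF175 to ZNF331 cluster.

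The clusters differed in upstream CpG. The median over all 240 members was 15 CpG in 250 bases, beside 18 over all coding genes. The ZNF101 to ZNF254 cluster had the lowest cluster median, 9 CpG (range 2 to 15), and 1 of its 37 genes reached 15, whereas 32 of the 39 genes of the ZNF175 to ZNF331 cluster did. The letters CCGGAAG, a core that ETS factors recognise, stood on either strand in 59.5% of the stretches of the ZNF101 to ZNF254 cluster (22 of 37), in 48.8% of those of the ZNF264 to ZNF446 cluster, in 29.6% over all members, in 28% over the ZNF-number genes of other chromosomes and in 11.8% over all coding genes. A match describes the letters and shows no binding.

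**Figure D1:**
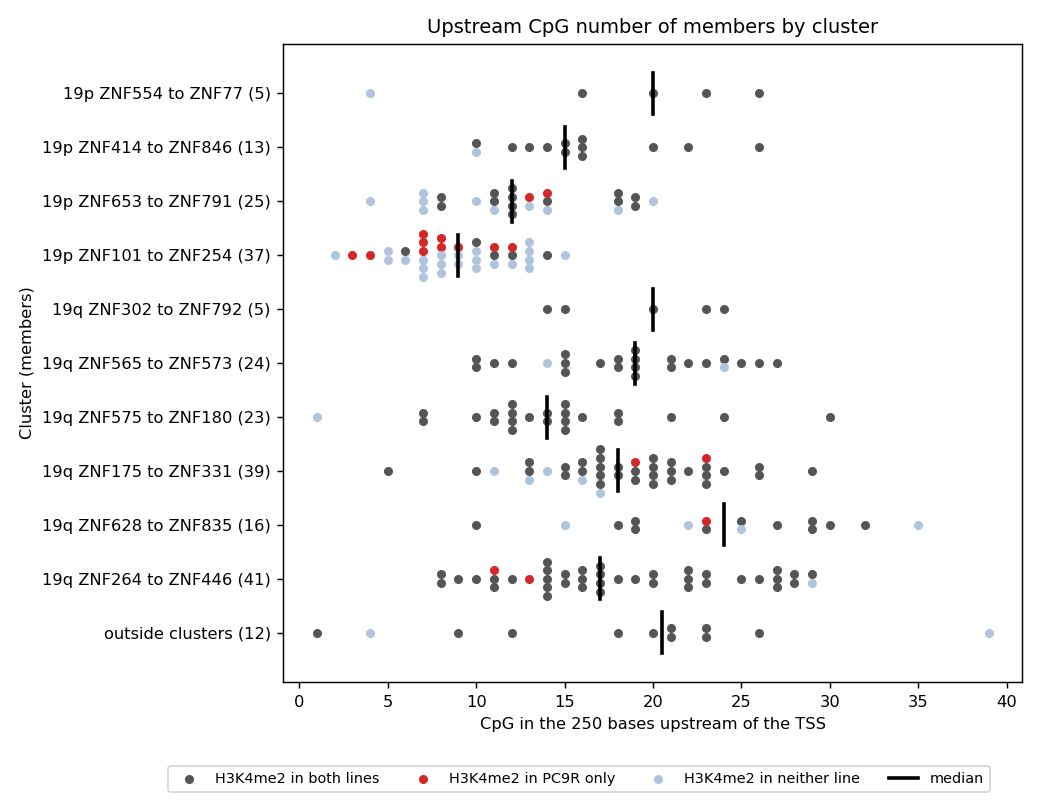
Number of CpG in the 250 bases upstream of the TSS (x axis) of each member (points) by cluster (y axis), coloured by the lines that had an H3K4me2 peak within 1 kb of the TSS, with black bars for cluster medians. The ZNF101 to ZNF254 cluster has the lowest median, 9 CpG, and holds 10 of the 17 genes marked in PC9R only.

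The members as a group had more counts in PC9R. They took 0.373% and 0.356% of all counts in the PC9 libraries, and 0.498% and 0.475% in the PC9R libraries, so the lines did not overlap. In these bulk cultures, more cells that express a gene and more RNA per cell cannot be told apart. Their summed level was 3804 CPM in each PC9 library and 4610 and 4718 CPM in the PC9R libraries, 1.21-fold and 1.24-fold higher within the first and the second libraries. Over the other coding genes of chromosome 19 the same ratios were 0.845 and 0.894, and over the ZNF-number genes of other chromosomes 1.00 and 0.924.

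Single genes were tested with edgeR over 12660 genes, of which 150 were members. In the fit without a batch term 1 member, ZNF253, passed an adjusted p of 0.05, beside 0.253% of all genes tested (0.19% higher and 0.0632% lower). Of the 150 members, 26 had an unadjusted p under 0.05 in that fit, beside 921 of the 12660 genes. Leaving out the first PC9R library gave 9 calls and leaving out the second gave 5, ZNF253 among them each time, and upper quartile scaling or a stricter filter gave 0 (ZNF253 at adjusted p 0.0648 and 0.0603 in edgeR). In a second fit the library number (first or second) was a batch term, since the second libraries were shallower and also stood apart from the first along transcript GC content. It called 40 members higher in PC9R and 2 lower (ZNF460 and ZNF71). This was 26.7% and 1.33% of the tested members, beside 11.2% and 9.57% of all genes tested. With only 1 residual degree of freedom, the batch fit takes most of its estimate of spread from other genes. In what follows, "rose" and "fell" refer to this fit. The members that it did not call summed to 1.12-fold and 1.13-fold more CPM in PC9R within the first and the second libraries.

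The median fold change over the 150 tested members was 0.50, beside -0.01 over all genes tested, 0.14 over 165 ZNF-number genes of other chromosomes and -0.04 over 700 other coding genes of chromosome 19. It was 0.60 within the first and 0.44 within the second libraries, and 0.77 without the second PC9 library. Of the tested members, 121 were above 0 and 29 below, 41 were above 1 (27.3%, beside 11.3% of all genes tested) and 1 was below -1 (0.667%, beside 7.61%). In 63 members both PC9R libraries lay above both PC9 libraries (42%, beside 16.9% of all genes tested) and in 3 below (2%, beside 14.9%). Within both pairs of libraries 106 were higher in PC9R (70.7%, beside 36.6%) and 20 lower (13.3%, beside 37.4%). The 28 tested genes of other kinds that lie inside the clusters had a median of -0.10, with 5 that rose and 1 that fell. These are 17.9% and 3.57%, beside 11.2% and 9.57% of all genes tested.

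The filter on low counts bears on these counts. Of the tested members, 16 reached its level in both PC9R libraries but not in both PC9 libraries, and 0 the reverse. Among the 129 that reached it in both PC9 libraries, 30 rose and 2 fell with the batch term, or 23.3% and 1.55%, beside 11.2% and 9.57% of all genes tested. The median fold change of the 129 was 0.46, and the edgeR fit without the term called 0 of them. Of all 150, 26 had an unadjusted p under 0.05 in that fit, beside 921 of 12660 genes. DESeq2 called 17 of all 150, beside 381 of 12660 genes. Members had transcripts of lower GC content than other genes (median 43.1%, beside 49.3%), and their median difference of second minus first library was 0.45 in PC9 and 0.28 in PC9R, beside -0.04 and -0.05 over all genes. With a GC correction added to the batch term, 38 members rose and 2 fell, and the median was 0.54.

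**Figure D2:**
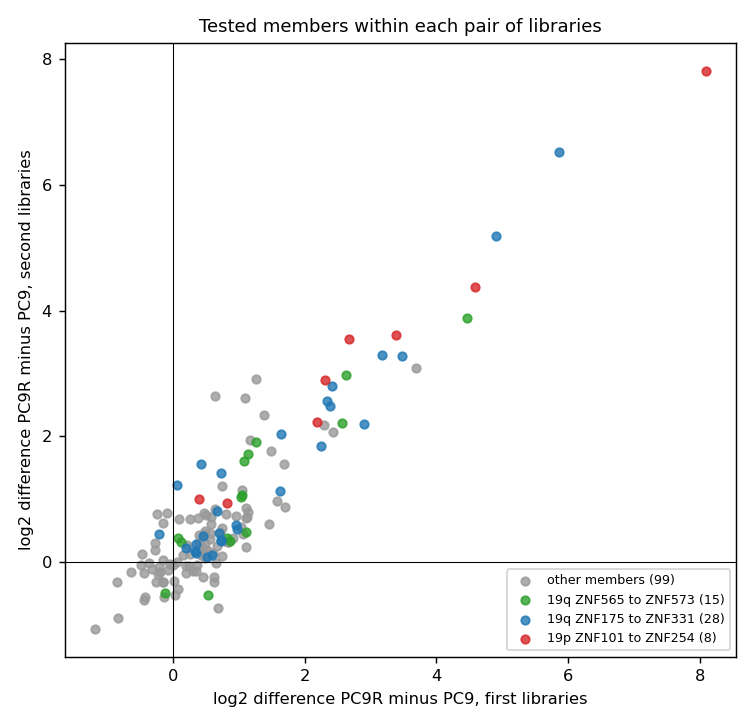
Log2 difference PC9R minus PC9 of the 150 tested members within the first libraries (x axis) and within the second libraries (y axis), coloured for 3 clusters. In all, 106 members lie above 0 in both pairs and 20 lie below 0 in both, and the points farthest from 0 lie close to the diagonal.

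Over all genes tested, 11.2% rose and 9.57% fell. By cluster, the largest median was that of the ZNF101 to ZNF254 cluster, 3.03 over its 8 tested genes, 7 of which rose. Of these 8, 5 reached the filter level in both PC9 libraries, with a median of 2.22 and 4 that rose. Next came the ZNF565 to ZNF573 cluster with 1.04 over 15 genes (7 rose), or 0.87 over the 12 that reached that level in PC9 (6 rose). The ZNF175 to ZNF331 cluster had 0.77 over 28 genes (12 rose), or 0.58 over 22 (8 rose). All 28 tested genes of the ZNF175 to ZNF331 cluster were above 0, the 22 among them, beside 49.4% of all genes tested. In 19 of the 28 the PC9R libraries lay above the PC9 libraries (67.9%, beside 16.9% of all genes tested). That count was not repeated for the 22, and it includes genes tested through their PC9R level. The ZNF628 to ZNF835 cluster had a median of -0.10 over 11 genes, with 1 that rose and 1 that fell (9.09% each, near the shares over all genes). Its transcripts were richer in GC (median 68.7%), and its second libraries lay below the first by a median of 1.36 in PC9 and 1.75 in PC9R on the log2 scale. The ZNF264 to ZNF446 cluster, with the most tested genes (35), had a median of 0.37, with 3 that rose and 1 that fell. These are 8.57% and 2.86%, both below the shares over all genes. Over the arms, 13 of 33 tested genes rose on 19p (median 0.76) and 27 of 117 on 19q (median 0.48), and both genes that fell were on 19q. Among those that reached the filter level in PC9, 9 of 29 rose on 19p (median 0.59) and 21 of 100 on 19q (median 0.44), and the difference between arms was not tested.

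**Figure D3:**
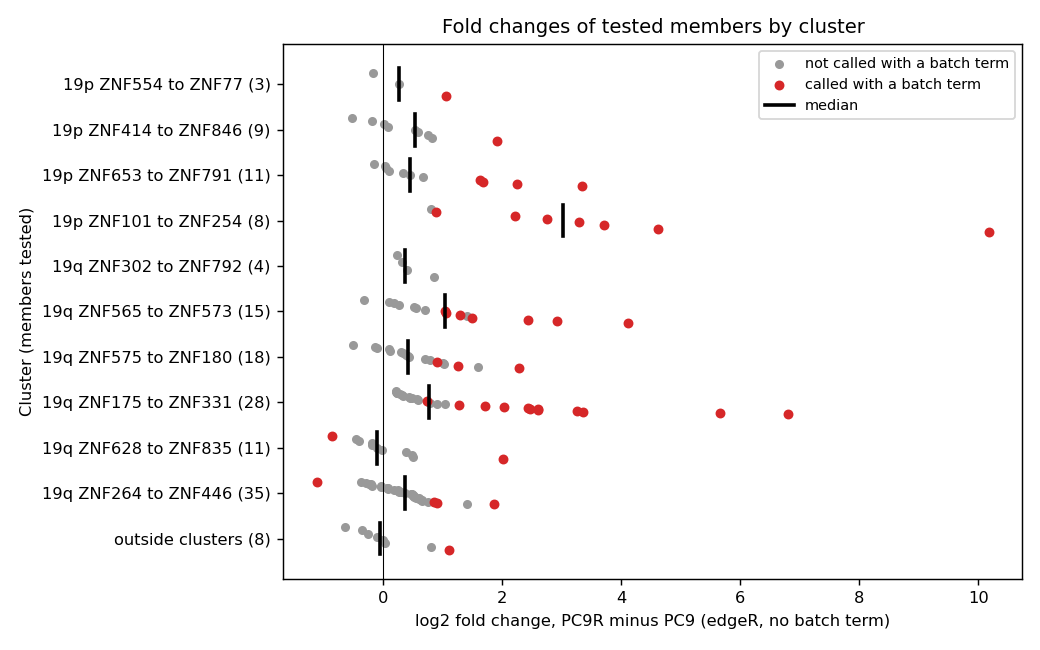
Log2 fold change, PC9R minus PC9, from the fit without a batch term (x axis) for each tested member (points) by cluster (y axis, with the number tested). Red points were called in the fit with a batch term and black bars are medians; the ZNF101 to ZNF254 cluster has the largest median, 3.03.

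Levels were low for much of the family. A gene was called off in a line at 3 counts or fewer over its 2 libraries and on at 1 CPM or more in both. Of the 234 members, 117 were on in PC9 and 134 in PC9R, 72 were off in PC9 and 59 in PC9R, and 58 were off in both lines (24.8%, beside 29.4% of coding genes). The ZNF101 to ZNF254 cluster had the lowest share of genes called on, with 4 of 33 on in PC9 and 8 in PC9R, and 25 off in PC9 and 20 in PC9R. Its off genes include some with several RefSeq accessions (ZNF85 with 5, ZNF43 with 7). Reads shared among its similar genes may also be lost, so off is not read as silent there. In the ZNF175 to ZNF331 cluster 21 of 37 genes were on in PC9 and 26 in PC9R. A total of 18 members (7.69%) were on in PC9R without being on in PC9, beside 2.72% of all genes and 5.22% of the ZNF-number genes of other chromosomes. The reverse held for 1 member, ZNF154 (0.427%), beside 2.02% and 2.61%. Low values of the 79 members with more than 1 RefSeq accession are not read as low expression, because the 8198 genes with several accessions together took no more than 6.74% to 7.07% of a library's counts. Among the 155 members with 1 accession, 37 were off in PC9 and 32 in PC9R.

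Full switches, from off in one line to on in the other, were found in 3 members, all on in PC9R: ZNF253, ZNF677 and ZNF347. This is 1.28% of the members, beside 0.209% of coding genes, and 0 members switched the other way, beside 0.0536%. The share switched on in PC9R was 0.87% of the ZNF-number genes of other chromosomes (2 of 230). Among the other coding genes inside the clusters it was 1.35% (1 of 74). The count of 3 depends on the limit for off: it was 1 (ZNF253) with off at 0 counts and 5 with off at 10 counts or fewer, which adds ZNF708 and ZNF91. Judged on the second libraries alone it was 6, and among members with 1 accession it was 2 (ZNF253 and ZNF677).

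ZNF253 (ENSG00000256771, chromosome 19, 19976691 to 20005483, plus strand) had 0 counts in both PC9 libraries and 149 and 126 counts in the PC9R libraries, which is 4.24 and 7.49 CPM. Against a floor of 3 counts over the PC9 libraries it was at least 82.7-fold higher in PC9R. Its edgeR adjusted p was 0.0425 without and 0.000346 with the batch term. It was the 1 member called in the fit without that term. With 0 counts in PC9 it passed the filter on low counts through PC9R alone, so these p-values are no separate support.

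ZNF677 (chromosome 19, 53738634 to 53758151, minus strand), a KRAB zinc finger gene known to be silenced by methylation in lung tumours, had 1 and 0 counts in PC9 and 95 and 51 in PC9R, or 2.71 and 3.03 CPM in PC9R. The ratio was 132 (95% counting interval 23.3 to 5239), with an edgeR adjusted p of 0.0554 without and 0.000629 with the batch term. Its neighbour ZNF347 (53627325 to 53662328, minus strand) had 1 and 0 counts in PC9 and 49 and 20 in PC9R. That ratio was 62.3 (10.8 to 2495), with adjusted p of 0.0892 and 0.00282 in the same edgeR fits. ZNF347 has 3 accessions, so its counts cover part of its reads. In all 3 genes the lines were far apart in both pairs of libraries. ZNF677 and ZNF347 too passed the filter on low counts through PC9R alone, so their p-values are no separate support.

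ZNF91 encodes a primate KRAB zinc finger protein known to repress SVA retrotransposons. It lies at 23487793 to 23578273 on the minus strand and stood at 0.157 and 0.267 CPM in PC9 and at 4.13 and 6.18 CPM in PC9R. The fold change was 4.63 (SE 0.80), with an edgeR adjusted p of 0.0703 without and 0.000383 with the batch term. ZNF708, in the same cluster (21473962 to 21512227), stood at 0.0941 and 0.0667 CPM in PC9 and 1.14 and 1.19 CPM in PC9R, a fold change of 3.72 (SE 0.87; edgeR adjusted p 0.169 and 0.00583). Both ZNF91 and ZNF708 passed the filter on low counts through PC9R alone, so their p-values are no separate support.

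2 more genes of that cluster, chosen after their values were seen, moved alike from higher levels. ZNF714 stood at 0.627 and 0.868 CPM in PC9 and at 4.07 and 10.5 CPM in PC9R. ZNF675, which encodes an inhibitor of TRAF6 signalling, stood at 1.38 and 2.87 CPM in PC9 and at 6.92 and 21.7 CPM in PC9R. In both genes the PC9R libraries were also far from each other, the second above the first, yet above both PC9 libraries; both rose with the batch term (edgeR adjusted p 0.00117 and 0.000984).

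Further named genes outside this cluster were already detected at a low level in PC9 and were higher in PC9R. ZNF793 (19q, 37997841 to 38039664) stood at 0.784 and 1.87 CPM in PC9 and at 17.7 and 27.9 CPM in PC9R, a fold change of 4.12 (SE 0.77; edgeR adjusted p 0.0788 and, with the batch term, 0.000163). ZNF813 (19q, 53970987 to 53999509) stood at 3.14 and 4.94 CPM in PC9 and at 35.1 and 48.0 CPM in PC9R. Its fold change was 3.37 (SE 0.65; edgeR adjusted p 0.0886 and 0.000167). Another gene of the ZNF175 to ZNF331 cluster, ZNF880, named after its values were seen, went from 3.07 and 4.20 CPM to 27.9 and 41.6 CPM. In the ZNF653 to ZNF791 cluster of 19p, ZNF441 (11877815 to 11894893) stood at 0.470 and 1.20 CPM in PC9 and 6.27 and 10.5 CPM in PC9R, a fold change of 3.35 (SE 0.78; edgeR adjusted p 0.165 and 0.000592). In these 4 genes both PC9R libraries lay above both PC9 libraries.

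Few members were lower in PC9R. ZNF460 (19q, 57791419 to 57805437) stood at 13.2 and 21.4 CPM in PC9 and at 5.84 and 10.2 CPM in PC9R, a fold change of -1.11 (SE 0.64), which passed with the batch term (edgeR adjusted p 0.0142) and not without it (0.900). ZNF71, singled out after its values were seen, stood at 17.4 and 9.34 CPM in PC9 and at 9.82 and 5.05 CPM in PC9R. Its lines overlap across the pairs of libraries and are ordered alike within each pair, and it fell with the batch term only (edgeR adjusted p 0.0411). ZNF333 (8.81 and 10.9 CPM in PC9, 8.09 and 7.43 in PC9R) and ZNF576 (3.86 and 3.94 CPM, then 3.36 and 3.75) did not pass in either fit.

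The 3 members of each arm with the highest level per length, averaged over the lines, were called in neither fit. On 19q these were ZNF787, at 202 CPM per kb of transcript in PC9 and 148 in PC9R, ZNF581 at 99.5 and 141, and ZNF544 at 59.2 and 62.9. On 19p these were ZNF358 at 30.7 and 53.9 CPM per kb, ZNF561 at 12.3 and 12.5, and ZNF627 at 11.5 and 11.7. Within lines the libraries were far apart for some, with ZNF358 at 92.9 and 27.9 CPM in PC9 and at 176 and 36.6 CPM in PC9R.

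**Figure D4:**
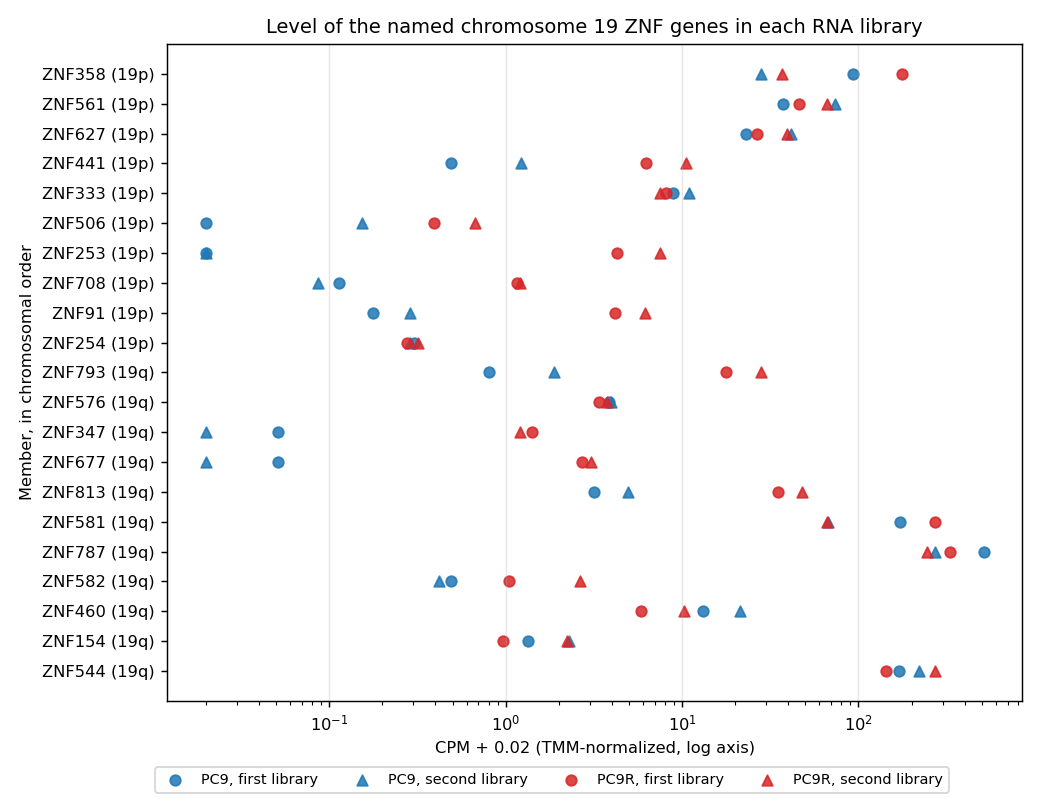
CPM (log axis, 0.02 added) in each of the 4 RNA libraries for the named members, in chromosomal order (y axis), with PC9 in blue, PC9R in red, first libraries as circles and second libraries as triangles. ZNF253 is at 0 in both PC9 libraries and at 4.24 and 7.49 CPM in PC9R, while ZNF460 is lower in PC9R.

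Promoter marks were read as peaks within 1 kb of the TSS, with 1 library per line and so no replicate check and no test. H3K4me2 stood at 174 of the 240 promoters in both lines, at 17 in PC9R only, at 0 in PC9 only and at 49 in neither. Both lines was 72.5% of the members, beside 66.1% of all coding genes, PC9R only 7.08%, beside 4.11%, PC9 only 0%, beside 1.24%, and neither 20.4%, beside 28.6%. Over the ZNF-number genes of other chromosomes these shares were 86.9%, 3.81%, 0.847% and 8.47%. The PC9R list is the longer, with 117861 peaks against 85246. When both lists were held to equal numbers of top-scored peaks, PC9R only was 15 members and PC9 only 0, beside 2.92% and 1.71% of all coding genes. With only the peaks above the median score of each list it was 34 and 0, beside 3.42% and 1.77%.

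Of the 17 promoters marked in PC9R only, 12 were on 19p (of 83 genes, 14.5%) and 5 on 19q (of 157, 3.18%). The share over all coding genes was 4.11%, above that of 19q. Of the 17, 10 lay in the ZNF101 to ZNF254 cluster, where 5 of 37 promoters had the mark in PC9 (13.5%) and 15 in PC9R (40.5%). The 17 genes were ZNF625, ZNF44, ZNF506, ZNF253, ZNF486, ZNF66, ZNF85, ZNF714, ZNF708, ZNF724, ZNF91 and ZNF254 on 19p and ZNF347, ZNF677, ZNF582, ZNF154 and ZNF814 on 19q. Their upstream stretches held a median of 11 CpG, as did those of the 49 unmarked genes, against 17 in the 174 genes marked in both lines. Cluster and CpG number cannot be told apart here, since the median over the whole ZNF101 to ZNF254 cluster was 9. The 5 genes on 19q held 19 (ZNF347), 23 (ZNF677), 23 (ZNF582), 11 (ZNF154) and 13 (ZNF814).

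DHS peaks stood at 106 of the 240 promoters in both lines, at 61 in PC9R only, at 15 in PC9 only and at 58 in neither. Both lines was 44.2% of the members, beside 24.5% of all coding genes, PC9R only 25.4%, beside 17.5%, PC9 only 6.25%, beside 6.8%, and neither 24.2%, beside 51.2%. Over the ZNF-number genes of other chromosomes these shares were 33.5%, 25%, 6.36% and 35.2%, so the PC9R only share was close to that of the members. The PC9R DHS list holds 59600 peaks and the PC9 list 19648, and with equal numbers of top-scored peaks the order turned, to 27 members in PC9R only and 45 in PC9 only (6% and 15.8% of all coding genes). The DHS classes of these promoters and the length of the lists cannot be told apart.

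The ZNF101 to ZNF254 cluster had no promoter DHS in PC9 (0 of 37) and 13 in PC9R (35.1%). Over its whole 4.49 Mb, DHS peaks numbered 3 in PC9 and 47 in PC9R, a ratio of 15.7, covering 643 and 11304 bases. The ratio was 3.03 over all peaks, 1.76 over chromosome 19 and 2.48 over the 10 clusters together. H3K4me2 peaks in that cluster numbered 11 and 26, covering 7242 and 17439 bases, a ratio of 2.36, against 1.38 over all peaks and 1.15 over the 10 clusters.

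**Figure D5:**
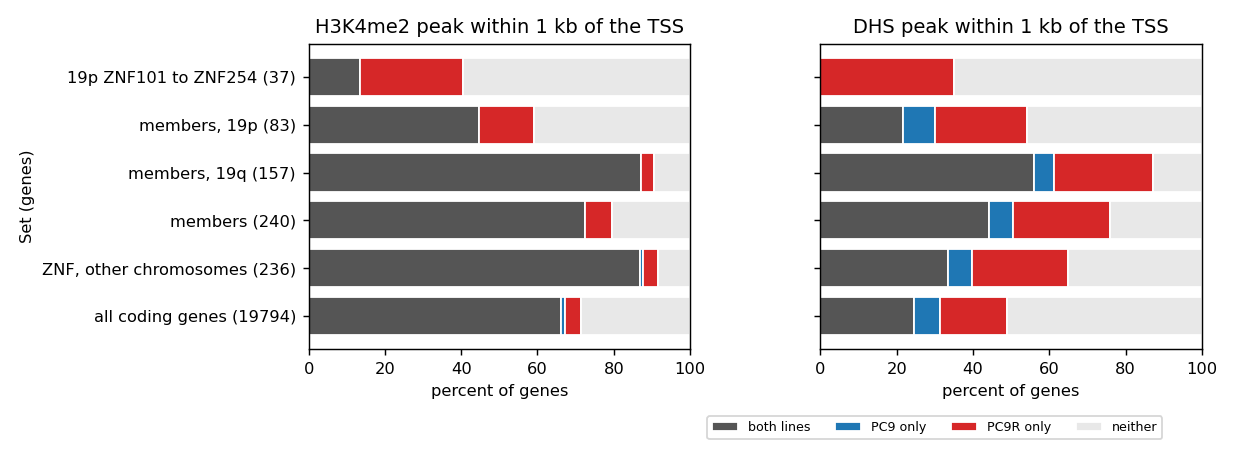
Percent of genes (x axis) with an H3K4me2 peak (left) or a DHS peak (right) within 1 kb of the TSS in both lines, PC9 only, PC9R only or neither, for sets of genes (y axis, with their number). For H3K4me2 no member falls in PC9 only, and 27% of the ZNF101 to ZNF254 cluster falls in PC9R only.

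Both marks were found in PC9R and neither in PC9 at 8 members (ZNF253, ZNF91, ZNF506, ZNF254, ZNF347, ZNF677, ZNF582 and ZNF154), beside 0.96% of all coding genes, and the reverse at no member, beside 0.0707%. The 3 genes that switched on are among these 8. ZNF582, known for promoter methylation in cervical and other cancers, stood at 0.470 and 0.40 CPM in PC9 and at 1.03 and 2.62 CPM in PC9R, and rose with the batch term (edgeR adjusted p 0.0389). It reached the filter level in both PC9R libraries and not in both PC9 libraries. ZNF506 had 0 and 2 counts in PC9 and 13 and 11 in PC9R, a ratio of 10.8 (2.69 to 94.5), and was too low to be tested. ZNF506 has 2 accessions, so its counts cover part of its reads.

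The remaining 2 had both marks in PC9R and levels that overlap between the lines. ZNF254 stood at 0.282 and 0.267 CPM in PC9 and at 0.256 and 0.297 CPM in PC9R, and has 8 accessions. ZNF154, long used as a methylation marker of tumours, stood at 1.32 and 2.27 CPM in PC9 and at 0.940 and 2.20 CPM in PC9R. Its PC9R peaks had the lowest scores of the 8 genes, 3.49 for DHS and 5.15 for H3K4me2, on the authors' scale.

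Level and H3K4me2 went together within each line. Among members with 1 accession, H3K4me2 stood at 103 of 106 promoters of genes on in PC9 and at 1 of 37 of those off in PC9. In PC9R it stood at 114 of 116 and at 1 of 32. Over all coding genes, among them many with several accessions, the shares for PC9 were 95.8% and 27%. The like shares over all members, whatever their number of accessions, were 97.4% and 30.6%, close to those of all coding genes. DHS peaks stood at 69 of the 106 genes on and at 1 of the 37 off in PC9. In PC9R, where the list is longer, they stood at 89 of the 116 on and at 13 of the 32 off. Over all members, whatever their number of accessions, the PC9R shares for DHS were 77.6% and 50.8%, beside 56.3% and 24.9% of coding genes.

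Of the 15 members with counts that had H3K4me2 in PC9R only, 13 had a higher mean level in PC9R, 5 of the 15 having no count in PC9. The 13 include ZNF254, with nearly equal means (0.275 and 0.277 CPM), and ZNF85, with 0 counts in PC9 and 1 in PC9R. Of the 754 coding genes with counts in the same class, whose median level in PC9 was 0, 364 had more counts in PC9R. The 9 members of the class that were tested had a median fold change of 3.72, and 7 rose (77.8%). As 6 of these 9 did not reach the filter level in both PC9 libraries, the median over the other 3 is given too, 0.62, of which 1 rose. Over the 144 tested coding genes of the same class the median was 1.08 and 65 rose (45.1%). Members marked in both lines had a median of 0.47 over 138 tested genes (92% of those tested), with 31 that rose (77.5% of the 40) and 2 that fell. Tested members with DHS in PC9R only had a median of 1.03 (37 genes, 19 rose), close to 1.06 in those with DHS in neither line (22 genes, 12 rose). Both DHS classes include genes that did not reach the filter level in both PC9 libraries.

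Within the class marked in both lines, the rank of the promoter peak in its own list is given as a description; the lists differ in length, so ranks are not read as a change between lines. For the 31 genes that rose, the median promoter peak scored above 66.5% of the peaks in the PC9 list and above 95.1% in the PC9R list. For the other 107 it scored above 90.8% and 96.5%. ZNF675 ranked above 9.84% of its list in PC9 and above 99.4% in PC9R, ZNF813 above 24.7% and 94.2%, and ZNF793 above 42.5% and 94.2%. ZNF880 ranked above 55.7% and 98.8%, and ZNF441 above 60.8% and 96.1%. ZNF460, which fell, ranked above 92.1% and 92.4%.

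The cofactors of KRAB proteins were also examined. Of 30 listed genes, 26 were tested and 0 passed in the edgeR fit without a batch term, with 0 at an unadjusted p under 0.05 and 0 calls by DESeq2 or limma-voom. With the batch term MORC2, an ATPase of the HUSH silencing pathway, rose (mean 123 to 190 CPM), and CBX5 (HP1 alpha), DNMT3A (a de novo DNA methyltransferase) and HDAC1 (a histone deacetylase) fell. Their fold changes were 0.63, -0.87, -1.23 and -0.72. This is 3.85% higher and 11.5% lower, beside 11.2% and 9.57% of all genes in that fit. Of the 30 genes, 23 have more than 1 accession (CBX5 and SETDB1 have 3, DNMT3A 4), so their low values are not read as low expression, and the list's median was -0.17. TRIM28, the corepressor itself, stood at 2854 and 1451 CPM in PC9 and at 2072 and 1432 CPM in PC9R, and SETDB1 at 3.64 and 4.87 CPM and at 3.33 and 4.52 CPM. The libraries of the lines overlap for both, and neither was called in either fit.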

How the data were processed

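RNA was measured in 4 libraries and chromatin in 4; line and assay were taken from the sample titles. The genes and lists described were chosen with earlier results of these data known. Per the file headers and values, the deposited RNA files hold raw read counts of 42811 RefSeq accessions, and each deposited peak file is 1 library's list, with the authors' score for every peak on a scale that is not stated. The submitters' processing notes name TopHat, HTSeq, DESeq, MACS2 and hg19 without versions, and do not give strand, peak thresholds or the handling of shared reads.

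Counts were summed per gene, with names from RefSeq's GRCh38.p14 gene table (41556 accessions matched; the others stayed as rows of their own and held 0.668% to 0.824% of counts). TSS, arms and transcript GC came from GENCODE 44 lifted to GRCh37, with the canonical TSS of each gene, and upstream sequence from GRCh37. The arms were divided at the widest gap between neighbouring coding TSS (24269989 to 29704058).

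The lines were compared by two-sided tests in edgeR 4.0.16 under R 4.3.3 (TMM, filterByExpr, quasi-likelihood F test, Benjamini-Hochberg over 12660 genes). The SE was taken as the fold change over the square root of F. Library number (first or second) was taken as a batch once the counts had been seen. The titles mark the second library of a line only as a repeat: the differences of second minus first library correlated between the lines at 0.764 over 12660 genes. Counting intervals and floors (3 counts) cover counting error only. Peaks were assigned to a TSS at an overlap of at least 1 base with the window of 1 kb on either side. Alternatives were other scalings and filters, the batch term with and without a GC correction, DESeq2 1.42.0, limma-voom (limma 3.58.1), leaving out each library, and other windows, scores and limits. Scripts were tested on simulated data.

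Named genes were the called and switched members, up to 8 per direction with the largest fold changes among those whose libraries do not overlap between lines (at least 1 CPM in the higher line), members with both promoter marks in 1 line only, the 3 most abundant per length in each arm, and TRIM28, SETDB1 and up to 3 further cofactors that were called; since 4 were called with the batch term, all 4 are given. ZNF675, ZNF714, ZNF880 and ZNF71 and the promoter sequences shown were chosen after values were seen. Protein features were not used here.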

Additional observations from a re-analysis of the deposited data

How the results depend on the processing

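The number of members called was 1 without a batch term and 1 under RLE scaling, with single-accession members only or with lettered symbols. It was 0 under upper quartile scaling, a stricter filter or, a choice made after seeing the data, among members that reach the filter level in both PC9 libraries; in edgeR 27 and 18 members had an unadjusted p under 0.05 under the first and second of these. It was 2 by limma-voom, 15 with no filter, 17 by DESeq2, 42 with library number as a replicate block and 40 with the block and a GC correction, and 1 to 9 with a library left out. Over all genes the calls were 73 of 12660 by limma-voom, 440 of 17834 with no filter and 381 of 12660 by DESeq2. In edgeR, upper quartile scaling and the stricter filter put 919 of 12660 and 544 of 9232 genes at an unadjusted p under 0.05. With the block the calls over all genes went from 32 to 2631. With 2 libraries per line the pairing rests on a repeat mark in the titles alone. The median fold change of members stayed between 0.46 and 0.55 in the alternatives that keep all libraries and was 0.41 to 0.77 with a library left out. Switches numbered 1 with off at 0 counts, 5 with off at 10 counts or fewer, and 4 to 6 with a pair of libraries left out. Members with promoter DHS in PC9R only fell from 61 to 27, and those in PC9 only went from 15 to 45, with equal numbers of top-scored peaks. H3K4me2 in PC9R only was 34 with only the peaks above each list's median score, and H3K4me2 in PC9 only was 1 with a 500 bp window or 200 bp of overlap. The median fold change of members with H3K4me2 in PC9R only was 3.48 with no filter, a choice made after seeing the data. With members up to 1000 kb apart joined, 9 clusters held 231 members.

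Of 223 alternative values for 19 named members, 210 kept their direction. The 13 that turned were of 7 genes. ZNF561 was -1.8e-05 under RLE scaling. With 1 library left out, the range was -0.39 to 0.57 for ZNF561, -0.33 to 0.49 for ZNF627, -0.47 to 0.49 for ZNF544, -0.84 to 1.32 for ZNF581, -0.72 to 1.92 for ZNF358, -0.86 to 0.066 for ZNF787 and -0.93 to 0.31 for ZNF154. The cause of these changes was not tested. Depth limits the low genes: 84 members with a count row were not tested, 38 of them at 0 in all 4 libraries.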
